A study of Mus musculus with 13 samples.

Results

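White adipose tissue (WAT) of Fv2E-PERK mice that had received AP20187 was compared with WAT of untreated wild-type mice, 3 arrays against 3, which are 6 of the 13 arrays of the series. The arrays were chosen by their titles and not by any measured value. Fv2E-PERK mice of the first group received AP20187 at 100 ng/g intraperitoneally and tissue was taken 12 h later. A further 2 arrays hold WAT of Fv2E-PERK mice given vehicle for the same 12 h, and they serve here only to judge the difference between slides. The wild-type mice carried no transgene and were given no injection. All mice were male C57BL/6J, and ages are not given in the sources used here. The construct is labelled mAP::Fv2E-PERK, and the labels do not spell out mAP or say which cells carry the transgene. The treatment text speaks of muscle, whereas the samples are labelled adipose tissue. No wild-type mouse received AP20187, so transgene, injection, ligand and slide change together in this comparison and cannot be told apart. Whether each array holds a separate animal is not given in the labels, and p-values then cover only the array-to-array spread, which may be technical.

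PERK, encoded by Eif2ak3, is a kinase of the endoplasmic reticulum (ER) membrane that phosphorylates the translation factor eIF2α when unfolded proteins collect in the ER. General translation then falls while the transcription factor ATF4 is made, and ATF4 switches on genes of amino acid synthesis, amino acid transport and the hormone FGF21. In Fv2E-PERK the kinase domain is joined to a domain that pairs up when the bivalent ligand AP20187 binds, so that the kinase can be activated without misfolded protein. White fat stores triglyceride and makes fatty acids, and it secretes adipokines such as adiponectin and leptin.

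Promoter sequences are shown for 4 genes that stand for the 4 groups described below: the hormone gene Fgf21, the ER chaperone gene Hspa5, the cholesterol synthesis gene Hmgcs1 and the clock gene Per3. They come from RefSeq on GRCm38.p6 and run 5′ to 3′ on the gene's own strand, from 250 bases before the gene's start to 50 bases after it. Capitals mark motifs found on either strand. Fgf21 lies at chr7:45615441-45615740 on the minus strand, with TTGCATCA, the reverse complement of a C/EBP-ATF response element searched as TGATGNAA, and an E-box, CACGTG. Hspa5 lies at chr2:34771840-34772139 on the plus strand, with the ER stress element, searched as CCAAT and CCACG with any 9 bases between them. Hmgcs1 lies at chr13:119690101-119690400 on the plus strand, with the sterol regulatory element searched as TCACNCCAC. Per3 lies at chr4:151044616-151044915 on the minus strand, with 2 D-boxes, searched as TTATGNAA, the element bound by Dbp, Tef and their relatives.
Fgf21: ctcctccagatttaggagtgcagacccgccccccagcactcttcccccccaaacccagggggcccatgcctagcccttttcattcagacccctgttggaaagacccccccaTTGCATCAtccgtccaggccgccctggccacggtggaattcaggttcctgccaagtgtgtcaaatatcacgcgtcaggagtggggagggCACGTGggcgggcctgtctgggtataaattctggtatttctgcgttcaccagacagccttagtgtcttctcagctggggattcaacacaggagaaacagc
Hspa5: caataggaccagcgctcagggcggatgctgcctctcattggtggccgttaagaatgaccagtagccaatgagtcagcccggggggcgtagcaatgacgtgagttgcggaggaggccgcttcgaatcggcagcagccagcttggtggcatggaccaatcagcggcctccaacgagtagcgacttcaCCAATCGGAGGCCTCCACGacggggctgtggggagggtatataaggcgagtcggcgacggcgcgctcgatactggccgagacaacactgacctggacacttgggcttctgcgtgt
Hmgcs1: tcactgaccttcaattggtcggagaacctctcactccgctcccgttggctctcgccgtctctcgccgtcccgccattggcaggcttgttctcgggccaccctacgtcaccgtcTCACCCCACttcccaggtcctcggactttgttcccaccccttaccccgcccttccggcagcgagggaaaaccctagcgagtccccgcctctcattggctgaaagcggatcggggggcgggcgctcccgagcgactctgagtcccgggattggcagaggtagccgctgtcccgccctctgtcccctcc
Per3: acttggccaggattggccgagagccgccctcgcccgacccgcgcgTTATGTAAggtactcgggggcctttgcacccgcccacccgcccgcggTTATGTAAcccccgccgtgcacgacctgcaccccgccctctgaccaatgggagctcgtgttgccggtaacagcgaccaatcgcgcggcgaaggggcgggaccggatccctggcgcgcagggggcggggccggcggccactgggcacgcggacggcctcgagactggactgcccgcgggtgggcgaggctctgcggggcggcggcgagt

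Of 32851 promoters of this length, 3.97% held TGATGNAA, 0.119% the ER stress element, 1.24% TCACNCCAC, 7.15% CACGTG and 3.38% TTATGNAA. The ER stress element was found in 9 of the 19 ER chaperone and translocon genes with a promoter entry, and TCACNCCAC in 1 of 16 cholesterol genes. TTATGNAA was found in 2 of 16 clock genes, Per1 and Per3, and CACGTG in 5 of the 16. TGATGNAA was found in 3 of 12 amino acid synthesis genes, Asns, Got1 and Pycr1. A match describes the letters of this window and is neither a shown binding site nor a cause of a change.

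Levels below are on a log2 scale on which 0 is the 75th percentile of the array's processed signal, and no level of 1 gene is set against that of another. A gene was called where limma's Benjamini-Hochberg adjusted p was under 0.05. Of 24456 features tested, 8.87% were called, 7.2% as rises (1762) and 1.66% as falls (407). The median of all features was 0.16 above 0 (log2), and list medians are given relative to it. The 3 AP20187 arrays all lay above the 3 wild-type arrays in 27.2% of features and all below in 10.9%. The AP20187 arrays were less alike than the wild-type arrays. AP20187 1 correlated at 0.88 with AP20187 2 and 3 over all features. With wild type 1 to 3 it correlated at 0.91, 0.90 and 0.91. AP20187 2 and 3 correlated at 0.94 with each other and at 0.93 to 0.96 with wild-type arrays. Wild-type arrays correlated at 0.98 to 0.99 with each other. The split depends on scaling: with the percentile taken over probes detected throughout the 12 arrays the median of all features was -0.21, with 104 rises and 1023 falls, and quantile scaling gave 65 rises and 39 falls. Leaving out AP20187 1 gave 5342 calls, leaving out AP20187 2 gave 56, AP20187 3 gave 1229, either vehicle array 1418, and any 1 of the wild-type arrays 0, while 5511, 5274 and 4932 features had an unadjusted limma p under 0.05 without wild type 1, 2 and 3.

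The slides differ between the groups. AP20187 1 to 3 and vehicle 2 share slide 2, and vehicle 1 and wild type 1 to 3 share slide 1. With slide as a block, the change is the sum of AP20187 minus vehicle 2 and vehicle 1 minus wild type, and limma then called 0 features (0%), against 1300 at an unadjusted p under 0.05. The difference vehicle 2 minus vehicle 1 had a median of 0.14 over the rises, -0.29 over the falls and 0.03 over all features. It was positive in 78.5% of the rises, 24.6% of the falls and 54.1% of all features. Vehicle 2 lay nearer the AP20187 mean than the wild-type mean in 15.9% of the rises with a value, 280 of 1760, but in 27 of the 43 rises of at least 4-fold. Vehicle 1 lay nearer the AP20187 mean in 123 of 1761 rises and in 11 of those 43.

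**Figure D1:**
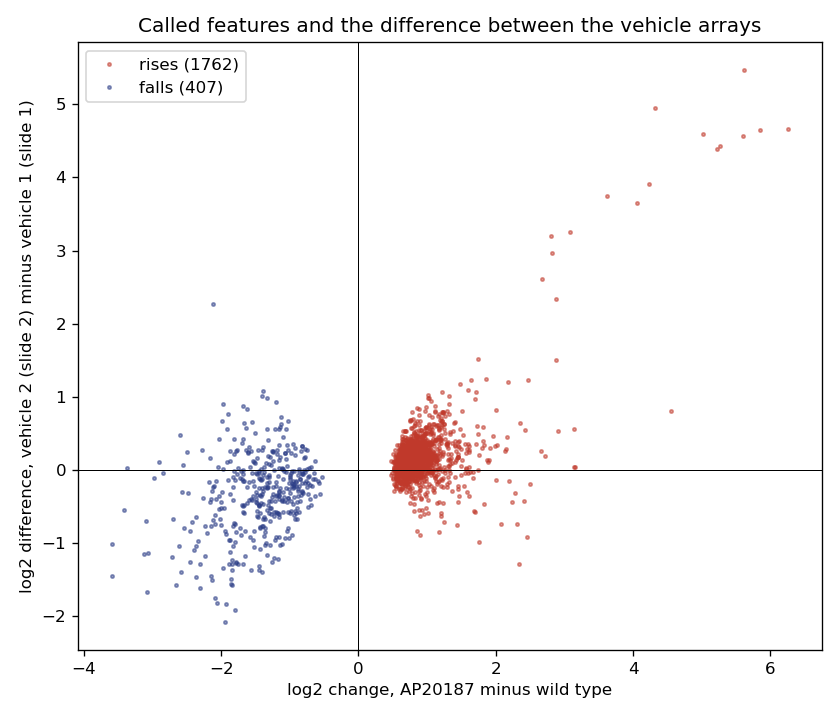
Each point is a feature called in AP20187 against wild-type white fat. The x axis gives that log2 change and the y axis the log2 difference vehicle 2 (slide 2) minus vehicle 1 (slide 1), with 1762 rises in red and 407 falls in blue. Most rises lie near 0 on the y axis (median 0.14), and a set of the largest rises lies far above it.

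Gaps were ranked only among called features with an established gene symbol, 1046 of 2169. Rises also had to be well above background on every AP20187 array. The 12 such rises with the widest gap between the nearest arrays of the groups were Slc27a5, Cyp2a4, Cyp2c39, Fgf21, Cyp2c54, Cyp2c50, Ugt2b34, Mup6, Cyp3a16, Lect2, Ces2c and Cyp2c29. The 11 besides Fgf21 are genes best known from the liver: cytochrome P450 enzymes of drug and steroid metabolism, the bile acid activating enzyme Slc27a5, the glucuronosyltransferase Ugt2b34, the carboxylesterase Ces2c, the major urinary protein Mup6 and the secreted protein Lect2. These 11 were high on every array of slide 2 and low on every array of slide 1. Their median level was 0.81, 0.21 and 0.99 on AP20187 1 to 3, 0.59 on vehicle 2, -3.51 on vehicle 1, and -2.69, -4.38 and -4.69 on wild type 1 to 3. The vehicle array on the AP20187 slide thus carried them at the level of the AP20187 arrays, and the vehicle array on the wild-type slide did not.

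Slc27a5 stood at 3.32, 2.04 and 3.24 on the AP20187 arrays, 1.68 on vehicle 2, -2.98 on vehicle 1, and -2.17, -3.71 and -4.30 on the wild-type arrays. Its log2 change was 6.26 (SE 1.06, adjusted p = 0.026, limma) and 1.60 (SE 1.15, adjusted p = 0.96) with slide as a block. Lect2, Ces2c and Ugt2b34 had log2 changes of 2.80, 2.83 and 4.31 without the block, and -0.40, -0.14 and -0.64 with it (Lect2 and Ugt2b34 were well above background on 2 of the 3 wild-type arrays). For Cyp2c39 and Mup6 no wild-type array was well above background, so only a bound of at least 11-fold and at least 13.7-fold higher in AP20187 white fat can be given. Of the compared groups, only the AP20187 group, where they are high, passed them through the filter on dim probes. No test is therefore drawn from their calls, nor from those of Lect2, Ugt2b34, Cyp2c54 and Cyp3a16, which the wild-type group did not pass either. For such a bound the dim arrays were given the lowest signal among probes well above background, or the probe's own signal where that was higher, before the group means were compared. Members of these families have near-identical copies, and which copy a probe reads is uncertain.

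A set of 5 families was chosen after these values were seen: Cyp2a, Cyp2c, Cyp3a, Ugt2b and Mup, with 30 genes tested. Of the 30, 11 rose, against 7.2% of all features. The AP20187 arrays all lay above wild type in 20, against 27.2% of all features. Vehicle 2 lay above all wild-type arrays in 28, and vehicle 1 in 3. Because the families were picked from these values, the counts are no test of them. The 11 that rose include Cyp2c39, Mup6, Cyp2c54, Cyp3a16 and Ugt2b34, from whose calls no test is drawn. Of 13 secreted liver proteins, 12 had a positive log2 change, the AP20187 arrays all lay above wild type in 6 (27.2% of all features), and the median was 1.79 relative to all features. The mean of its 13 members was 0.67, -0.23 and 0.13 on the AP20187 arrays, 3.46 on vehicle 2, -0.70 on vehicle 1, and 0.22, -1.29 and -1.96 on the wild-type arrays, so vehicle 2 was highest, and none was called. Albumin (Alb) was the 1 member with a negative change, at 2.45, 0.95 and -6.08 on the AP20187 arrays, 5.82 on vehicle 2, 1.91 on vehicle 1, and 2.46, 0.47 and -0.04 on the wild-type arrays, with AP20187 3 not well above background.

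Fgf21, which encodes a fasting and stress hormone made by liver and fat, was the exception among the 12. It stood at -0.61, 0.40 and 0.44 on the AP20187 arrays, -3.87 on vehicle 2, -4.67 on vehicle 1, and -3.90, -4.47 and -5.09 on the wild-type arrays. All 3 AP20187 arrays lay above both vehicle arrays and all wild-type arrays, and the vehicle arrays did not differ by slide in the way of the 11 liver-type genes. The log2 change was 4.56 (SE 1.0), a 23.6-fold rise, and 3.76 (SE 2.11, adjusted p = 0.94, limma) with slide as a block. Its probe was well above background on 2 of the 3 wild-type arrays. Of the compared groups, only the AP20187 group, where it is high, passed it through the filter on dim probes. No test is therefore drawn from its call.

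**Figure D2:**
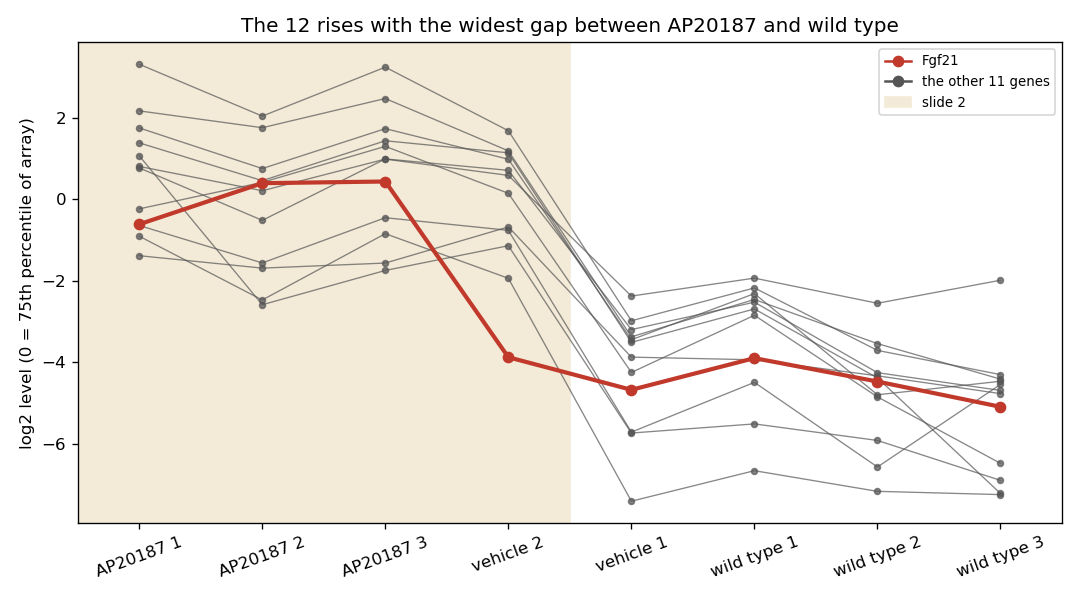
Log2 level of the 12 ranked rises with the widest gap on each white fat array, with the arrays of slide 2 shaded. The 11 liver-type genes, in grey, are high on vehicle 2 (median 0.59) as on the AP20187 arrays and low on vehicle 1 (median -3.51), whereas Fgf21, in red, is low on both vehicle arrays.

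The lists of stress kinases and phosphatases, stress transcription factors, and ATF4 and CHOP targets held no called gene. Fgf21 and the amino acid genes Psph and Slc3a2, which were called, were counted in other lists. Eif2ak3 itself was 1.40, 1.13 and 1.23 on the AP20187 arrays, 1.16 on vehicle 2, 0.93 on vehicle 1, and 0.89, 1.0 and 1.17 on the wild-type arrays (log2 change 0.23, SE 0.14, adjusted p = 0.32). It is unknown whether the probe reads the stretch of Eif2ak3 used in the transgene, so these levels do not check the labels. None of 10 stress kinase and phosphatase genes, none of 8 stress transcription factors and none of 14 ATF4 and CHOP targets was called, with medians of 0.06, 0.13 and 0.03 relative to all features.

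Atf4 stood at 6.71, 7.12 and 7.05 on the AP20187 arrays, 6.06 on vehicle 2, 6.05 on vehicle 1, and 6.21, 6.18 and 6.12 on the wild-type arrays. The groups did not overlap, and the 1.73-fold difference had an adjusted p of 0.18. Atf5 and Cebpb, which act beside ATF4, were 2.21-fold and 2.24-fold higher (adjusted p = 0.083 and 0.075, limma). Ddit3, which encodes CHOP, and its target Trib3 overlapped between the groups and were 1.44-fold and 2.05-fold higher (adjusted p = 0.39 and 0.22). Among the hormones and receptors, 1 of 6 tested rose, against 7.2% of all features. It was Fgf21, from whose call no test is drawn, so the count is no result about the list. Gdf15, another stress hormone, was -0.55, -3.57 and -0.64 on the AP20187 arrays, -2.32 on vehicle 2, -1.73 on vehicle 1, and -1.74, -1.59 and -1.15 on the wild-type arrays, with AP20187 2 far below the rest.

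Of 13 amino acid synthesis genes, 1 rose, a share near the 7.2% of rises over all features, so the call concerns the gene and not the list. Psph, the last enzyme of serine synthesis, stood at 4.60, 5.05 and 4.71 on the AP20187 arrays, 3.64 on vehicle 2, 3.40 on vehicle 1, and 3.21, 3.28 and 3.03 on the wild-type arrays. The AP20187 arrays lay above all others, the rise was 3.07-fold (log2 change 1.62, SE 0.34, adjusted p = 0.031), and the log2 change was 1.38 with slide as a block. Asns, asparagine synthetase, was 1.64-fold higher (adjusted p = 0.21).

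Of 9 amino acid transport genes, 1 rose, again close to 7.2%. Slc3a2, the shared heavy chain of several amino acid exchangers, stood at 6.23, 5.92 and 5.89 on the AP20187 arrays, 4.99 on vehicle 2, 5.11 on vehicle 1, and 5.12, 4.48 and 4.85 on the wild-type arrays. The AP20187 arrays again lay above all others, with a 2.29-fold rise (SE 0.23 on the log2 scale, adjusted p = 0.028) and a log2 change of 1.32 with slide as a block. Among 20 aminoacyl-tRNA synthetases 1 rose, Farsa, a subunit of the phenylalanine enzyme, by 2.0-fold (adjusted p = 0.032), which as a share of the list is below the 7.2% over all features, while the AP20187 arrays lay above wild type in 12 of 20, against 27.2% of all features, and the list median was 0.40 relative to all features.

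Chaperones and translocon subunits of the ER, which fold secreted proteins and carry them into the ER, held more calls than other lists: 8 of 21 tested members rose and none fell, against 7.2% rises over all features. The AP20187 arrays all lay above wild type in 18 of the 21, against 27.2% of all features, and the list median was 0.72 relative to all features. Ssr1, a translocon-associated subunit, stood at 5.24, 5.39 and 5.35 on the AP20187 arrays, 4.55 on vehicle 2, 4.62 on vehicle 1, and 4.43, 4.49 and 4.41 on the wild-type arrays. The rise was 1.84-fold (log2 change 0.88, SE 0.12, adjusted p = 0.026), and the vehicle arrays lay close to wild type.

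Sec61a1, the channel subunit of the translocon, stood at 5.81, 5.50 and 5.49 on the AP20187 arrays, 4.79 on vehicle 2, 4.66 on vehicle 1, and 4.44, 4.56 and 4.62 on the wild-type arrays, a 2.08-fold rise (adjusted p = 0.026). Hspa5, the chaperone BiP, stood at 7.78 and 7.22 on AP20187 1 and 3, 6.89 on vehicle 2, 6.56 on vehicle 1, and 5.87, 5.81 and 6.00 on the wild-type arrays. AP20187 2 has no Hspa5 value because its spots were outliers, so the 3.05-fold rise (adjusted p = 0.026) rests on 2 AP20187 arrays, and both vehicle arrays lay above all wild-type arrays. Dnajb9, a co-chaperone of BiP, rose 1.79-fold (adjusted p = 0.027). The other called members, listed after their values were seen, were Sec61b, Calr, Pdia3 and P4hb, with rises of 1.86-fold, 2.04-fold, 1.86-fold and 1.63-fold. With slide as a block the list median was 0.80 relative to all features and none of the 21 was called. None was called either with quantile scaling, under which 104 features were called in all. No feature was called with slide as a block, the authors' value table, the 6 compared arrays alone or any 1 wild-type array left out. Those settings therefore say nothing of this list in particular. With the detected-probe percentile 2 were called. The list median was above that of all features in 30 of 30 settings, at 0.40 to 0.83 relative to it. Several of these settings, such as a trended prior or a vehicle array left out, cannot move this median. They repeat the 0.72 of the main fit and are no separate check. Pdia2, a called fall given below, is not in this list.

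Several ER genes were highest on AP20187 1, the array on which epididymis markers were also highest. Creld2, a secreted ER stress protein, was 6.64 on AP20187 1 and 4.94 and 5.16 on AP20187 2 and 3, against 5.09 on vehicle 2, 4.62 on vehicle 1, and 3.91, 3.88 and 4.50 on the wild-type arrays. Without AP20187 1 the list median was 0.40 relative to all features, with 12 calls in the list. Calls over all features grew from 2169 to 5342 in that setting, so the larger count is not particular to the list. Without AP20187 2, 1 of the 21 was called, with 56 calls over all features. The part of epididymis RNA in these genes was not tested.

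Of 24 genes of cholesterol synthesis and uptake, 3 rose and none fell, against 7.2% rises over all features. The AP20187 arrays all lay above wild type in 19 of 24, against 27.2% of all features, and the median was 0.87 relative to all features. Fdps, which makes farnesyl diphosphate, stood at 5.94, 6.44 and 6.16 on the AP20187 arrays, 4.68 on vehicle 2, 4.39 on vehicle 1, and 4.59, 4.83 and 4.64 on the wild-type arrays. The vehicle arrays lay at the wild-type level and the rise was 2.81-fold (log2 change 1.49, SE 0.33, adjusted p = 0.034).

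Hmgcs1, which makes HMG-CoA, stood at 6.65, 7.45 and 7.34 on the AP20187 arrays, 6.58 on vehicle 2, 6.01 on vehicle 1, and 6.17, 6.02 and 5.74 on the wild-type arrays, a 2.25-fold rise (adjusted p = 0.033). Vehicle 2 nearly reached AP20187 1. Ebp, a sterol isomerase, rose 1.92-fold (adjusted p = 0.032). Sqle, the squalene epoxidase, was 3.14-fold higher with an adjusted p of 0.10 (named after its values were seen). With slide as a block the list median was 0.97 relative to all features, and none was called. Without AP20187 1, 12 of the 24 were called, and without AP20187 2 or 3 none was. Calls over all features were 5342, 56 and 1229 without AP20187 1, 2 and 3.

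Of 17 fatty acid synthesis genes 1 rose, against 7.2% over all features: Srebf1, which encodes the transcription factor SREBP-1. It stood at 3.03, 4.41 and 3.89 on the AP20187 arrays, 2.53 on vehicle 2, 2.40 on vehicle 1, and 2.40, 1.56 and 1.74 on the wild-type arrays. The groups did not overlap and the rise was 3.67-fold (log2 change 1.88, SE 0.37, adjusted p = 0.029). Acacb, an acetyl-CoA carboxylase, was 5.17 on AP20187 1 and 7.14 and 6.59 on AP20187 2 and 3, against 5.0 on vehicle 2, 5.24 on vehicle 1, and 5.10, 4.70 and 4.46 on the wild-type arrays (adjusted p = 0.091). The list median was 0.61 relative to all features.

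**Figure D3:**
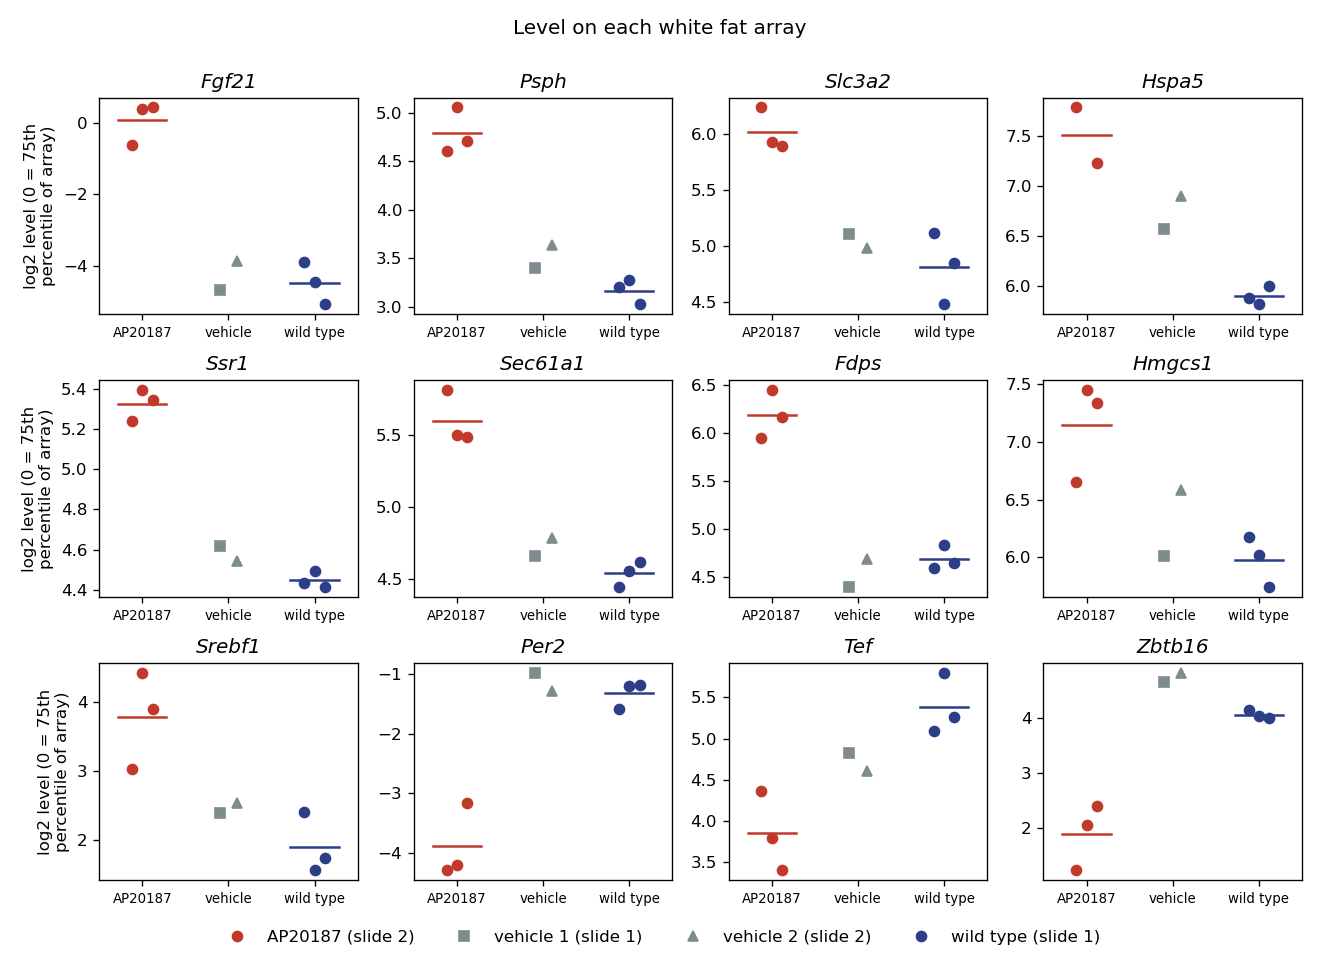
Log2 level of 12 genes on each white fat array, with AP20187 arrays left, vehicle arrays in the middle (square on slide 1, triangle on slide 2) and wild-type arrays right, and lines at group means. In Fgf21, Psph, Slc3a2, Ssr1, Sec61a1 and Fdps the AP20187 arrays lie above both vehicle arrays, and Per2, Tef and Zbtb16 lie lower on the AP20187 arrays (Per2 mean -3.89, against -1.32 in wild type).

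Clock genes moved in both directions. Of 18 tested, 1 rose and 4 fell, against 1.66% falls over all features. Per2, a repressor of the clock, stood at -4.29, -4.21 and -3.17 on the AP20187 arrays, -1.28 on vehicle 2, -0.98 on vehicle 1, and -1.59, -1.19 and -1.18 on the wild-type arrays. Both vehicle arrays lay near wild type, and the fall was 5.93-fold (log2 change -2.57, SE 0.43, adjusted p = 0.026), though only 1 of the 3 AP20187 arrays was well above background for it. Per3, its paralog, stood at -6.32, -5.72 and -4.15 on the AP20187 arrays, -3.21 on vehicle 2, -2.66 on vehicle 1, and -2.33, -1.44 and -2.16 on the wild-type arrays, a fall of 3.42 on the log2 scale (adjusted p = 0.026), and was well above background on 1 of the 3 AP20187 arrays.

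Tef, a PAR-domain transcription factor, stood at 4.36, 3.80 and 3.41 on the AP20187 arrays, 4.61 on vehicle 2, 4.83 on vehicle 1, and 5.10, 5.80 and 5.26 on the wild-type arrays (2.88-fold fall, adjusted p = 0.028). Dbp, its relative, stood at 2.74, 2.06 and 1.73 on the AP20187 arrays, 2.02 on vehicle 2, 2.0 on vehicle 1, and 2.90, 4.76 and 4.12 on the wild-type arrays. Arntl, which encodes the activator BMAL1, stood at 1.5, 2.35 and 2.36 on the AP20187 arrays, 1.83 on vehicle 2, 1.79 on vehicle 1, and 1.33, -0.06 and 0.09 on the wild-type arrays. Dbp fell 3.38-fold (adjusted p = 0.046) and Arntl rose 3.07-fold (adjusted p = 0.038), but for both the vehicle arrays of either slide lay at the AP20187 level, and wild type 1 lay nearest the AP20187 arrays. The labels give no clock time of collection and the wild-type mice were not injected, so time of day and treatment cannot be told apart.

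Of 14 glucocorticoid-responsive genes 1 fell, against 1.66% over all features: Zbtb16, a transcription factor gene induced by glucocorticoids. It stood at 1.24, 2.06 and 2.40 on the AP20187 arrays, 4.82 on vehicle 2, 4.65 on vehicle 1, and 4.15, 4.03 and 4.01 on the wild-type arrays. The fall was 4.48-fold (log2 change -2.16, SE 0.47, adjusted p = 0.032), and both vehicle arrays lay above all wild-type arrays. The list median was -0.63 relative to all features, with AP20187 arrays all below wild type in 6 of 14, against 10.9% of all features. On slide 2 the median of AP20187 minus vehicle 2 was -0.14 for the list and 0.14 for all features. The list median was -0.38 for vehicle 2 minus vehicle 1 and 0.10 for vehicle 1 minus wild type. With slide as a block the median log2 change was -0.26, against -0.47 without it.

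The other falls with the widest gap were Elf4, Rad54b, Ctxn2, Dnaic2, Lao1, Nkain2, Plxnb3, Pdia2 and Neil3. They were ranked among called features with an established symbol that were well above background on every wild-type array. Among them are an ETS transcription factor (Elf4), DNA repair genes (Rad54b and Neil3), a dynein chain of cilia (Dnaic2), an amino acid oxidase (Lao1) and a semaphorin receptor (Plxnb3). For 8 of these 9, no AP20187 array was well above background. The bounds ran from at least 1.22-fold lower for Neil3 to at least 3.36-fold lower for Plxnb3, with at least 3.10-fold for Lao1 and at least 2.70-fold for Ctxn2. Dnaic2, above background on 1 AP20187 array, stood at -6.05, -3.64 and -3.85 on the AP20187 arrays, -1.66 on vehicle 2, -1.54 on vehicle 1, and -1.55, -1.35 and -1.71 on the wild-type arrays. Spots well above background made up 51.5%, 49.0% and 51.4% on the AP20187 arrays, 64.0% on vehicle 2, 61.2% on vehicle 1, and 57.9%, 58.9% and 60.6% on the wild-type arrays. Fewer spots were thus above background on every AP20187 array, and the part of this in the falls was not tested. In bulk tissue, fewer cells of a type and less RNA per cell cannot be told apart.

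Cell cycle genes had a median of -1.03 relative to all features. In 12 of 17 the AP20187 arrays all lay below wild type, against 10.9% of all features, though none fell past the threshold. On slide 2 the median of AP20187 minus vehicle 2 was -0.12 for the list and 0.14 for all features. The list median was -0.33 for vehicle 2 minus vehicle 1 and -0.24 for vehicle 1 minus wild type. With slide as a block the median log2 change was -0.59, against -0.86 without it. Bub1, a mitotic checkpoint kinase, was well above background on no AP20187 array and was at least 1.69-fold lower (adjusted p = 0.078). Tyms, thymidylate synthase, was the 1 member that rose, 2.03-fold (adjusted p = 0.040), with a change of 0.001 on the log2 scale with slide as a block.

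Of 16 interferon-stimulated genes 2 rose, against 7.2% over all features, and both were higher still with vehicle. Isg15, a ubiquitin-like protein, stood at 3.23, 3.92 and 3.90 on the AP20187 arrays, 4.02 on vehicle 2, 4.25 on vehicle 1, and 2.79, 2.37 and 2.31 on the wild-type arrays (2.29-fold rise, adjusted p = 0.031). Usp18, which removes Isg15 from proteins, stood at 0.29, 0.84 and 0.82 on the AP20187 arrays, 1.15 on vehicle 2, 1.26 on vehicle 1, and -0.51, -0.71 and -0.52 on the wild-type arrays (2.34-fold rise, adjusted p = 0.026). Both vehicle arrays, one on each slide, lay above every wild-type array for both genes. The list median was 0.48 relative to all features, and the median difference was -0.43 for AP20187 minus vehicle 2 and 1.40 for vehicle 1 minus wild type.

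In the remaining metabolic lists calls were few, and single calls in lists of 12 to 16 genes are near the 7.2% of all features. Of 16 lipolysis and lipid droplet genes 1 rose, Gpd1, the cytosolic glycerol phosphate dehydrogenase, by 2.10-fold (adjusted p = 0.035), and Adrb3, the β3-adrenergic receptor, was 2.28-fold lower (adjusted p = 0.055). Of 12 insulin signalling genes 1 rose, the kinase gene Akt2, by 2.04-fold (adjusted p = 0.049). None of 18 glycolysis genes and none of 22 respiratory chain and citrate cycle genes was called, with medians of 0.38 and 0.36 relative to all features. Without AP20187 1, 12 and 18 of them were called, in a setting that called 5342 of all 24446 features. With quantile scaling the respiratory median was -0.08.

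No gene was called among 14 adipocyte identity genes, 15 of fatty acid oxidation, 12 thermogenic, 10 heat shock, 8 NRF2 target, 13 immediate early, 11 inflammation, 17 collagen and matrix and 4 snoRNA host genes. Their medians relative to all features were 0.04, 0.00, 0.23, 0.50, 0.38, -0.02, -0.03, -0.18 and 0.31. Adiponectin (Adipoq) was 8.25, 9.46 and 9.24 on the AP20187 arrays, 8.97 on vehicle 2, 9.15 on vehicle 1, and 9.05, 9.03 and 8.62 on the wild-type arrays. Leptin (Lep) overlapped between the groups as well (adjusted p = 0.83). Ucp1, the uncoupling protein of brown fat, was above background on 1 AP20187 array and on no wild-type array (adjusted p = 0.059).

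**Figure D4:**
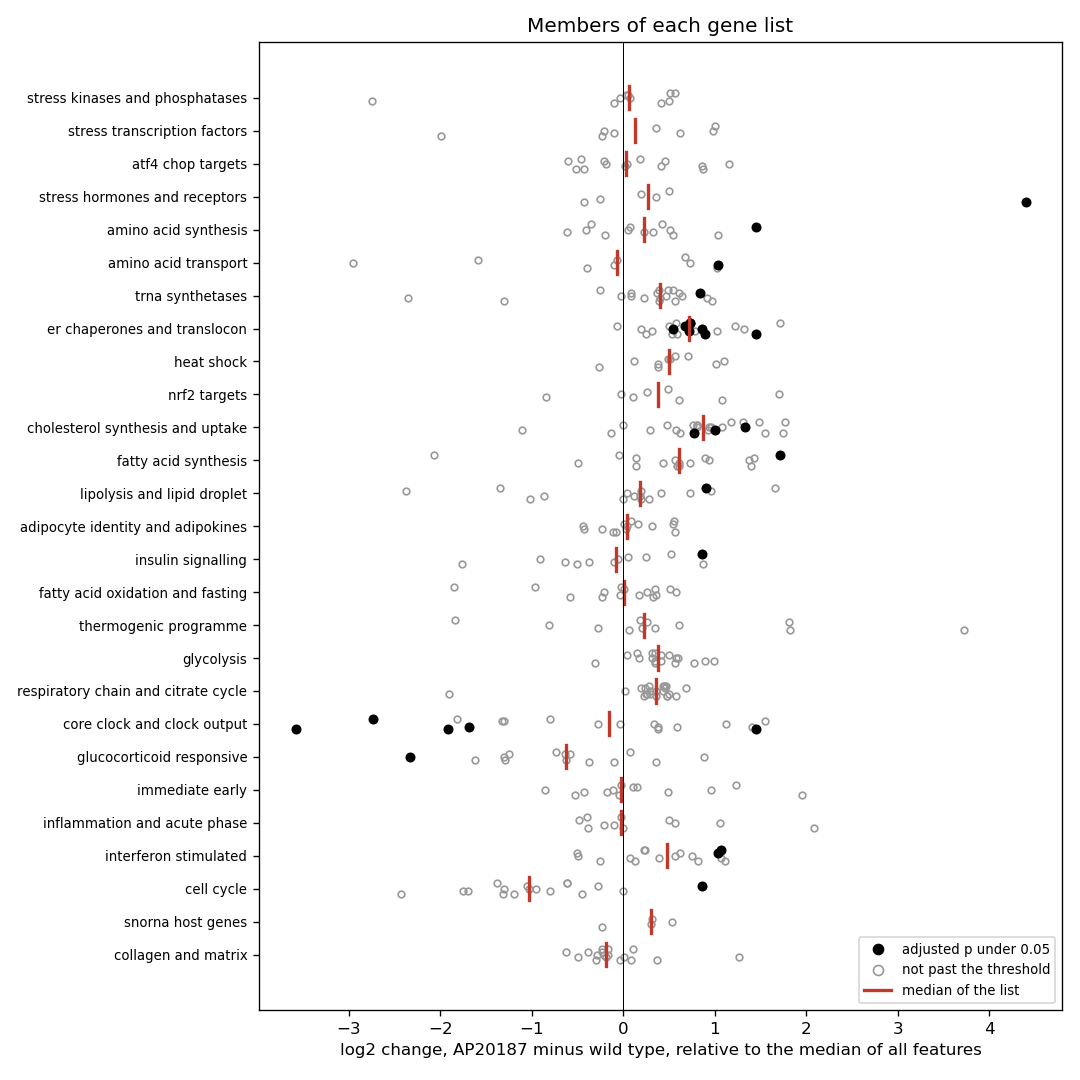
Log2 change of every tested member of 27 gene lists, AP20187 minus wild type, relative to the median of all features. Filled points passed the threshold and red bars are list medians, which are highest for cholesterol synthesis (0.87) and ER chaperones (0.72) and lowest for the cell cycle (-1.03).

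The labelled tissue was checked against its markers. Of 12 adipocyte markers, 10 were well above background on every AP20187 array and all 12 on every vehicle and wild-type array, and none was called. The mean of the 12 was 6.92, 7.94 and 8.13 on the AP20187 arrays, 7.61 on vehicle 2, 7.64 on vehicle 1, and 7.76, 7.73 and 7.46 on the wild-type arrays. AP20187 1 was also the lowest array for macrophage markers (mean 0.80, against 1.49 to 2.47 on the other 7 white fat arrays) and endothelial markers (1.36, against 2.54 to 3.02).

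Epididymis markers differed most between arrays. Of 20 on the array, 11 did not pass the filter on dim probes, although each of the 20 was well above background on at least 1 AP20187 array, and the 9 kept were bright throughout some group. The mean of those 9 was 7.34, 0.39 and -3.36 on the AP20187 arrays, -4.00 on vehicle 2, -3.30 on vehicle 1, and -3.51, -3.45 and -0.80 on the wild-type arrays. None of the 9 was called. Gpx5, an epididymal peroxidase, was 9.75, 2.93 and -3.60 on the AP20187 arrays, -6.71 on vehicle 2, -7.09 on vehicle 1, and between -6.96 and -5.92 on the wild-type arrays. It was well above background on no wild-type array and entered the test only through the AP20187 arrays, so no test is drawn from it, and its high mean rests mainly on AP20187 1. Smooth muscle markers had a mean of 5.81 on wild type 3, against 2.27 to 3.52 on the other arrays. No gene was called among macrophage, lymphocyte, endothelial, smooth muscle, skeletal muscle, mesothelium or pancreas markers, 14, 10, 12, 9, 15, 10 and 4 of which were tested. The part of other tissues in the results above was not tested.

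**Figure D5:**
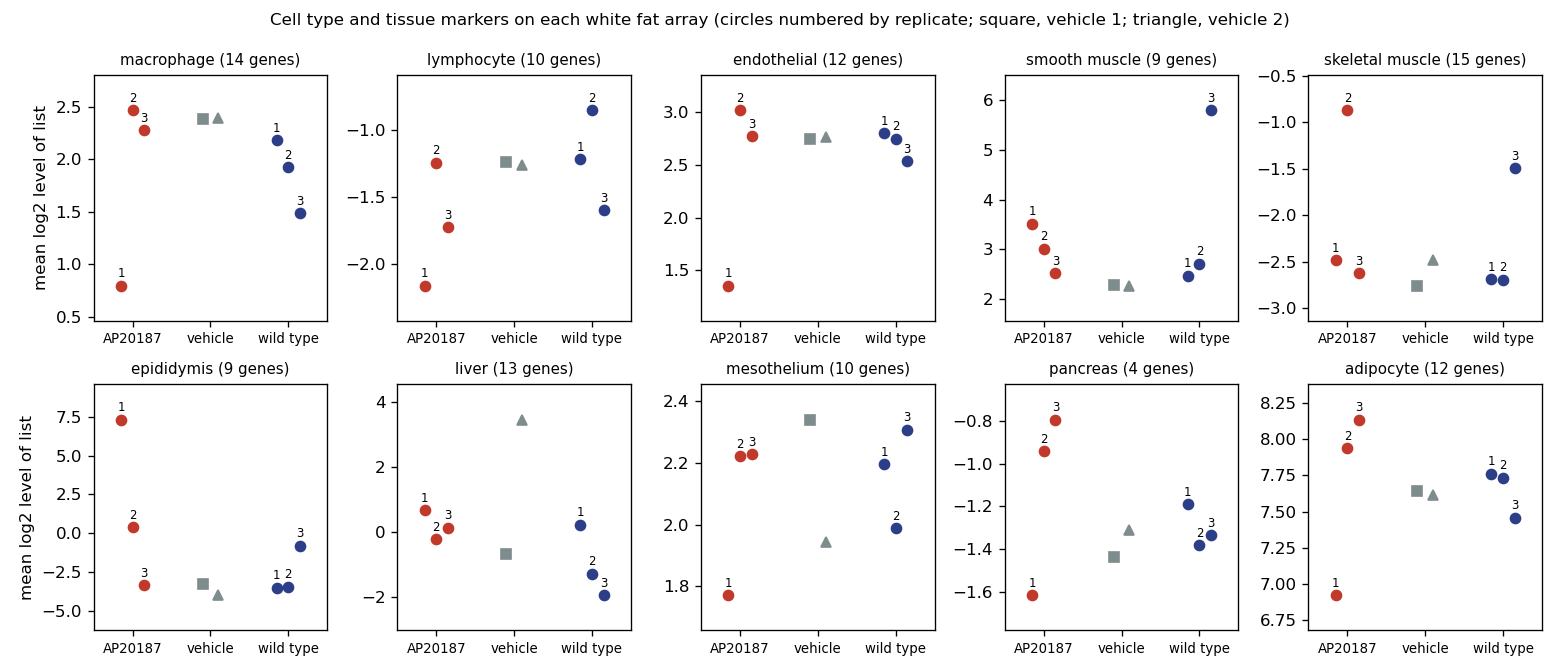
Mean log2 level of each marker list on each white fat array, AP20187 left, vehicle in the middle and wild type right. Epididymis markers are highest on AP20187 1 (7.34), liver markers on vehicle 2 (3.46) and smooth muscle markers on wild type 3 (5.81).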

How the data were processed

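White fat RNA was measured on 1-colour (Cy3) Agilent arrays. Per the file headers, the deposited values are intensity, background-subtracted and detrended by Feature Extraction 10.7.1.1 and not scaled across arrays. The authors' value table, also intensity, was used as an alternative. Outlier spots were dropped, spots of a probe averaged, and log2 of the signal taken minus each array's 75th percentile. Kept were 32611 probes well above background throughout 1 or more of the 5 groups, with the brightest probe per gene, giving 24456 features, 15083 of them named. Of 55681 probes, 26056 were named by accession through RefSeq records of GRCm38.p6. The 12 grouped arrays were fitted together with limma 3.58.1 under R 4.3.3 (lmFit, eBayes), and the fit was tested on simulated data. Their number limits the precision. One further array has labels that contradict each other on tissue and was left out. Genes named are the 12 rises and 12 falls with the widest gap, up to 4 called members of each list (or the 2 with the smallest p) and 11 fixed genes. Some are not reported here. The comparison, genes and lists were chosen with earlier results of these data known.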

Additional observations from a re-analysis of the deposited data

Results flagged for a closer look

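On the array whose title and source name give different tissues, which entered no comparison and lies on slide 2, the 11 liver-type genes among the widest-gap rises had a median level of -0.022 (range -2.55 to 2.2). Each of the 11 lay above all 3 wild-type white fat arrays there, which is why it is listed. On the 4 brown fat arrays, which share slide 3, the same genes ranged from -6.03 to -3.57.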

How the results depend on the processing

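Against 2169 calls, quantile scaling gave 104, the 75th percentile of probes detected throughout the 12 arrays 1127, normexp with quantile scaling 216, no filter on dim probes 7031, the 8 white fat arrays alone 1143, and leaving out AP20187 1 and 2 together 1132. The authors' value table, the 6 compared arrays alone and the replicate block gave 0 (4677, 6715 and 6644 at an unadjusted limma p under 0.05). Slide as a fixed block gave 0 (1300 unadjusted). Slide as a random block gave 13480, with a correlation within slides of -0.25, which is negative. The array with contradictory labels gave 3280 when added to white fat vehicle and 0 (5244 unadjusted) in brown fat vehicle. The 2 counts are not equal alternatives, since its Ucp1 and Fabp3 levels were far below those of the brown fat arrays. Leaving out 1 array gave 0 to 5342. A filter on all 12 arrays (3013), the mean of a gene's probes (1830), a trended prior (2906) and leaving out weak areas, where local signal was over 0.5 lower on the log2 scale (2072), stayed within 1.5 times. Replicate numbers did not pair the arrays: same-numbered AP20187 and wild-type deviations correlated at -0.21, 0.10 and -0.22.

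With slide as a block, log2 changes turned negative for Ugt2b34 (-0.64), Lect2 (-0.40) and Ces2c (-0.14). No other called gene named here turned direction. Uncalled genes that did: Gdf15 (0.026, 0.11 and 0.070 with quantile, normexp and the value table, 0.50 with slide as a block, 0.86 without AP20187 1 and 2, 0.08 without wild type 3, and -0.61 to 0.90 over arrays left out), Eif2ak3 (-0.14 with the detected-probe percentile), Lep (-0.16, -0.18 and -0.19 with quantile, detected-probe percentile and normexp, -0.02 without wild type 3, and -0.33 to 0.66 over arrays left out) and Adipoq (-0.48, -0.29 and -0.45 in the same 3 scalings, and -0.16 to 0.45 over arrays left out). Alb turned positive with the value table (1.17) and without weak areas (0.67), and ran from -3.53 to 0.74 over arrays left out. The causes were not tested.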
